A study of Mus musculus with 10 samples.

Results

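The genes described here encode the nuclear part of oxidative phosphorylation, the machinery by which mitochondria turn electrons from food into ATP. They were chosen by name, as every entry whose symbol starts with Nduf, Uqcr, Cox4, Cox5, Cox6, Cox7, Cox8 or Atp5, together with the 4 succinate dehydrogenase genes Sdha to Sdhd, Cyc1 and Cycs. The rule itself uses no measured value, but the group was chosen with earlier results of these data known. The rule found 94 of the 23282 entries of the gene tables. They comprise 36 genes of complex I, 4 of complex II, 9 of complex III, 1 for cytochrome c, 11 for the widely expressed subunits of complex IV, 8 tissue-specific subunits or paralogs of complex IV, 15 of complex V and 10 assembly or related factors. Whole skin of C57BL/6 mice aged 5 months was profiled by sequencing the 3′ ends of polyadenylated RNA. The titles form a wild-type group (WT, 5 libraries) and a group labelled as having keratinocytes without STAT3, a transcription factor activated by cytokine receptors (STAT3cKO, 5 libraries). The sources used here do not name the promoter that drove the ablation, the deleted exons, the sex or the litter. They also do not say that every library is a mouse of its own, so a p-value here reflects only how these libraries scatter, which may be technical in part.

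As background, complex I takes electrons from NADH and complex II takes them from succinate, and both hand them to complex III through ubiquinone. Cytochrome c carries them on to complex IV, which reduces oxygen, and complex V makes ATP with the proton gradient that complexes I, III and IV build. A core of complexes I, III, IV and V is encoded in mitochondrial DNA, and the nuclear genes supply the remaining subunits, including all of complex II. Skin mixes epidermal keratinocytes, which draw much of their ATP from glycolysis, with fibroblasts, fat and the thin panniculus muscle, whose fibres are rich in mitochondria. Skeletal muscle, heart and brown fat use their own versions of some complex IV subunits, Cox6a2, Cox7a1 and Cox8b, in place of the common Cox6a1, Cox7a2 and Cox8a. Ndufa13, a complex I subunit also known as GRIM-19, is known for binding the STAT3 protein.

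Promoter sequences bear on these genes because a shared set of factors, nuclear respiratory factor 1 (NRF1) and proteins of the ETS family such as GABPA, is known to act at many of them. RefSeq promoters on build GRCm38.p6 were matched for 77 of the 94 genes, 83 promoters in all, and the 250 bases before each start were searched on both strands for 5 motifs. For the NRF1 motif, a palindrome of GCGCA followed at once by its reverse complement, 5 of the 83 member promoters held it, or 6.02%, against 0.782% of all 32851 promoters of that length and 1.45% of the 11207 that belong to tested genes. For the ETS motif CCGGAAG, 13 of the 83 member promoters held it, or 15.7%, against 6.91% of all 32851 promoters of that length and 12.9% of the 11207 that belong to tested genes. The estrogen-related receptor motif TCAAGGTCA was in 1 (1.2%, against 0.387%), the STAT motif TTCCNGGAA in 1, that of Ndufa8 (1.2%, against 0.913%), and the muscle-type E-box CAGCTG in 6 (7.23%, against 13%). No motif searched contains another. A match is a run of letters and not a bound site, and a window without one says only that these letters are not in it. The 4 promoters printed here, the 250 bases before the RefSeq start, belong to the only gene that passed the test (Ndufv3), to a common complex IV subunit whose groups did not overlap (Cox6b1), and to a common and a tissue-specific complex IV subunit (Cox6a1 and Cox8b), with motif matches in capitals.
Ndufv3 (chr17:31519865-31520114, plus strand): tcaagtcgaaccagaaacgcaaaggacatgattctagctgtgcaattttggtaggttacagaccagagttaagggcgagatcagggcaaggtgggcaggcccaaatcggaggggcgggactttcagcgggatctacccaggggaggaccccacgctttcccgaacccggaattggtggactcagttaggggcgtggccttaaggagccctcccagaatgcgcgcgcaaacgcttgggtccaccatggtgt
Cox6b1 (chr7:30626115-30626364, minus strand): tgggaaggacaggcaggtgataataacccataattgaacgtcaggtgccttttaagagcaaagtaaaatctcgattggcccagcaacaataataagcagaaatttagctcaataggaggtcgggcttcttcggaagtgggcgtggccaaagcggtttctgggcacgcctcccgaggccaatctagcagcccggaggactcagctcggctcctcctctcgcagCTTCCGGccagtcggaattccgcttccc
Cox6a1 (chr5:115348959-115349208, minus strand): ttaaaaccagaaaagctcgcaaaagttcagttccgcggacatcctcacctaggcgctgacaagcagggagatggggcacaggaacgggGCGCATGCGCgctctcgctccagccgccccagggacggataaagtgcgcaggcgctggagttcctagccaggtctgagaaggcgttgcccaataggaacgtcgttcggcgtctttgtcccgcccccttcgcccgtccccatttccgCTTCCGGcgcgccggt
Cox8b (chr7:140900447-140900696, minus strand): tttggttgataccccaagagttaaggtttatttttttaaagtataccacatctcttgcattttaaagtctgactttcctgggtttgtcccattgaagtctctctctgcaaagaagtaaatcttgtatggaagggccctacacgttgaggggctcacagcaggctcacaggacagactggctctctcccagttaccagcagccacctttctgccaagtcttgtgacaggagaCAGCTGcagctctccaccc
The Cox6a1 window held an NRF1 and an ETS match, that of Cox6b1 an ETS match, that of Cox8b an E-box, and that of Ndufv3 none of the 5.

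The deposited values are on a log2 scale of scaled reads per gene, and the estimated depth was 7180639 to 16644936 reads per library in WT and 7516147 to 18330385 in STAT3cKO. STAT3cKO 2 stood apart: 13308 of its 23282 entries had no read, against 8565 to 11441 in the other 9 libraries. It also lacked Xist, at 0.06 against 8.65 to 11.01 elsewhere, and carried Ddx3y, at 10.62 against at most 1.26. Keratinocyte markers were present in every library, Krt14 at 10.82 to 14.17 and Krt10 at 12.60 to 15.83. Stat3 itself had a value of 9.72 ± 0.56 in WT and 10.13 ± 0.48 in STAT3cKO (SD, n = 5 each, adjusted p = 0.7 by limma), which does not check the ablation, since reads of the 3′ end also arise from shortened transcripts and from cells other than keratinocytes. How reads were assigned to strands or to near-identical copies is not given, and many of these genes have processed pseudogenes, so part of a count could come from such a copy.

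Nuclear oxidative phosphorylation genes were mostly somewhat lower in STAT3cKO skin, but the only one to pass the test was Ndufv3, a complex I subunit, which fell 2.74-fold. Of 91 members with enough reads to be tested, 0 rose and 1 fell, where 0.459% of all 11536 genes tested fell and 0.529% rose, 0.988% in all. The members called were 1.10% of those tested, a share close to that background. Of the 91, 80 had a change below 0, or 87.9%, against 56.2% of all genes tested, and the median change was −0.44 on the log2 scale against −0.16 over all genes. Among the 79 members with a value of at least 8 in at least 8 libraries, 71 were below 0, where 53.6% of the 4347 genes of that kind were. At an unadjusted p under 0.05, 19 were lower and 0 higher (20.9%), where 5.95% of all genes were lower and 4.95% higher. In 6 members, 6.59%, every STAT3cKO library lay below every WT library, against 1.72% of all genes, and in 0 members did every STAT3cKO library lie above, against 1.71%. The members share 10 libraries and many vary together, so these shares describe them and are no test. In the same libraries 17 of 17 adipocyte markers (median −2.22) and 17 of 19 skeletal muscle markers (median −1.75) had a change below 0, and 8 of 8 suprabasal keratinocyte markers (median 1.18) one above 0. Their part in the lower values was not tested.

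The scaling of the libraries moved these values by a similar amount for all genes. With each library brought to the same total, the median over all genes shifted by 0.11 to −0.05, the median of the members became −0.33, and 75 of 91 were below 0, while Ndufv3 no longer passed (−1.34, adjusted p = 0.0553 by limma). Relative to the median of all genes the members stood at −0.28 on either scaling, a distance that rescaling whole libraries can hardly change. It was −0.53 without STAT3cKO 2, where the members' median was −0.48 and that of all genes 0.05. Without STAT3cKO 2 and WT 3, the libraries in which the most entries lacked a read, 81 of 91 were below 0, with a median of −0.51 against −0.03 over all genes, and 0 passed (Ndufv3 −1.47, adjusted p = 0.106 by limma). Among the 4 deeper libraries alone the members' median was −0.35 (all genes −0.01) and among the 6 shallower ones −0.44 (all genes −0.18).

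**Figure D1:**
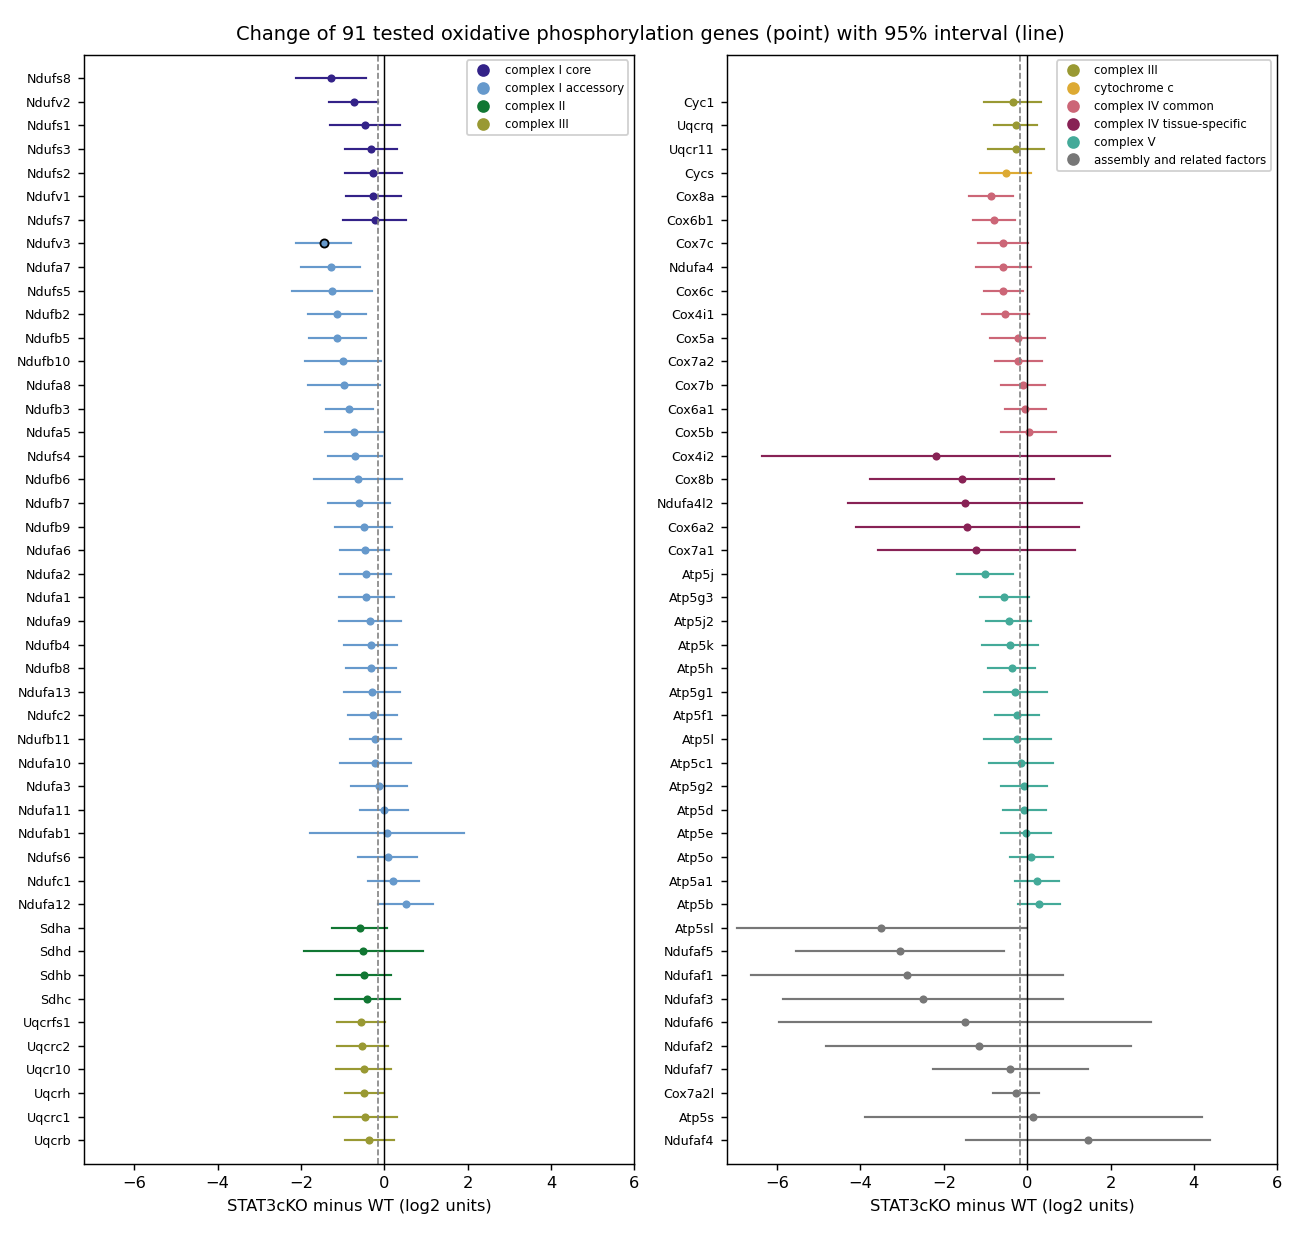
Change of each of the 91 tested members, STAT3cKO minus WT in log2 units (horizontal axis), by role; points are limma estimates, lines 95% intervals, the dashed line the median of all genes tested (−0.16). Most points lie left of 0, Ndufv3 (black outline) is the only one that passed the test, and the intervals of assembly factors and tissue-specific subunits are wide.

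The 94 members took 2.89, 3.36, 2.90, 2.88 and 4.28% of reads for WT 1 to 5, against 2.45, 3.24, 2.43, 3.33 and 2.15% for STAT3cKO 1 to 5. The mean was 3.26 ± 0.60% in WT and 2.72 ± 0.53% in STAT3cKO (SD, n = 5 each). The groups overlapped: WT 5 was highest, STAT3cKO 4 and STAT3cKO 2 lay within the WT range, and STAT3cKO 1, 3 and 5 lay below every WT library. In a bulk sample of skin, fewer cells rich in mitochondria and less of these RNAs per cell cannot be told apart. Hair shaft and matrix markers had a mean level of 9.81, 12.54 and 9.56 in STAT3cKO 1, 3 and 5, against 0.24 and 0.82 in STAT3cKO 2 and 4. Within WT they were highest in WT 4, at 13, whose share of 2.88% was close to those of WT 1 and 3. The part of hair growth in these shares was not tested.

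Complex I had the largest number of members and the single call. Of 36 tested genes, 0 rose, 1 fell and 35 did not pass, 31 had a change below 0, and the median was −0.44 (−0.29 without WT 5). Its mean level was 10.92, 11.26, 11.12, 11.06 and 11.55 for WT 1 to 5, against 10.63, 10.62, 10.66, 11.04 and 10.44 for STAT3cKO 1 to 5. STAT3cKO 1, 2, 3 and 5 lay below every WT library, and STAT3cKO 4 lay above WT 1. The 7 nuclear core subunits, which form the conserved electron path of the matrix arm, all had a change below 0, from −1.27 (Ndufs8) to −0.23 (Ndufs7). Among the 29 accessory subunits the range was −1.45 to 0.52.

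**Figure D2:**
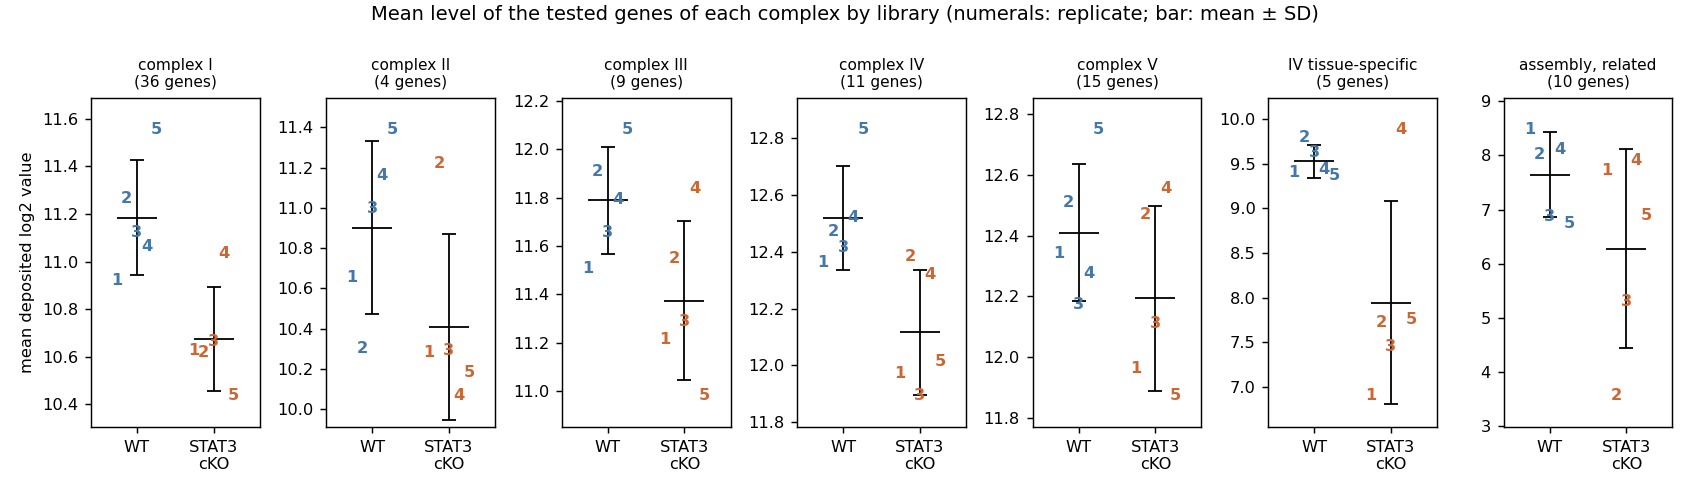
Mean deposited log2 value of the tested genes of each complex (vertical axis, a separate scale in each panel that does not start at 0) by library; numerals are replicate numbers, bars the mean ± SD of 5 libraries. In complex I STAT3cKO 1, 2, 3 and 5 sit below all WT libraries and STAT3cKO 4 sits among them, while in complex V the groups overlap widely.

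Ndufv3 (chromosome 17, 31520115 to 31531331, plus strand of mm10) encodes an accessory subunit of the module that oxidises NADH. Its value was 12.36, 13.15, 12.90, 11.95 and 13.63 for WT 1 to 5, against 11.78, 11.54, 11.12, 11.44 and 10.86 for STAT3cKO 1 to 5. The highest STAT3cKO library lay below the lowest WT library. The means were 12.80 ± 0.66 in WT and 11.35 ± 0.36 in STAT3cKO (SD, n = 5 each), a change of −1.45 (adjusted p = 0.0317 by limma, SE 0.32, 95% interval from −2.12 to −0.79). Leaving out 1 library at a time ended the call in 7 of 10 cases, with an adjusted p by limma of up to 0.0955 (without WT 3). It held without WT 1, WT 4 or STAT3cKO 2. In the 4 deeper libraries its change was −1.61 (adjusted p = 0.0937 by limma), and in the 6 shallower ones −1.35 (adjusted p = 0.481 by limma).

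The other complex I genes with groups that did not overlap were Ndufa7 and Ndufb2, neither of which passed the test. Ndufa7, an accessory subunit of the matrix arm (chromosome 17, 33824572 to 33838317, plus strand of mm10), had values of 10.73, 10.36, 10.90, 10.60 and 10.41 for WT 1 to 5, against 9.37, 8.84, 8.88, 10.14 and 9.35 for STAT3cKO 1 to 5. All STAT3cKO libraries were below 10.36, the lowest WT value, and the change was −1.29 (adjusted p = 0.0747 by limma, SE 0.33, 95% interval from −1.99 to −0.59). With only genes of at least 8 in at least 8 libraries tested, Ndufa7 passed (adjusted p = 0.0398 by limma), and it passed without STAT3cKO 4 (adjusted p = 0.0492 by limma). Ndufb5, an accessory subunit of the membrane arm named after its values were seen, passed only without STAT3cKO 2 (−1.37, adjusted p = 0.0331 by limma), its change being −1.13 (adjusted p = 0.113 by limma, SE 0.32) with all libraries, and its exons overlap those of Mrpl47 on the other strand. Ndufb2, an accessory subunit of the membrane arm (chromosome 6, 39592574 to 39603382, plus strand of mm10), had values of 10.68, 10.86, 11.03, 10.66 and 11.26 for WT 1 to 5, against 9.20, 9.06, 9.95, 10.39 and 10.20 for STAT3cKO 1 to 5. STAT3cKO 4 came closest to WT 4 without reaching it, and the change was −1.14 (adjusted p = 0.121 by limma, SE 0.33, 95% interval from −1.84 to −0.44). Exons of Ndufb2 overlap those of Braf and Gm16272 on the other strand and those of Gm42420 on the same strand.

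Ndufa13 encodes the subunit whose protein is known to bind STAT3 (chromosome 8, 69894180 to 69902558, minus strand of mm10). Its values were 11.55, 11.99, 11.71, 12.02 and 12.89 for WT 1 to 5, against 11.43, 12.24, 12.21, 11.84 and 10.98 for STAT3cKO 1 to 5. The groups overlapped, with WT 5 highest and STAT3cKO 5 lowest. Its change was −0.29 (adjusted p = 0.754 by limma, SE 0.32, 95% interval from −0.96 to 0.38), and its exons overlap those of Tssk6 on the other strand. Ndufa6, an accessory subunit of the matrix arm and the complex I member with the highest mean value, had values of 12.93, 12.99, 12.71, 12.62 and 13.11 for WT 1 to 5, against 12.19, 13.19, 12.02, 12.78 and 11.82 for STAT3cKO 1 to 5. STAT3cKO 2 was the highest of all 10 libraries for it and STAT3cKO 5 the lowest, and the change was −0.47 (adjusted p = 0.558 by limma, SE 0.28). Changes above 0 in complex I were those of Ndufa12 (0.52), Ndufc1 (0.22), Ndufs6 (0.08), Ndufab1 (0.07), the mitochondrial acyl carrier protein, and Ndufa11 (0.00 after rounding), and 0 of these 5 passed. These 5 were named after their values were seen.

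**Figure D3:**
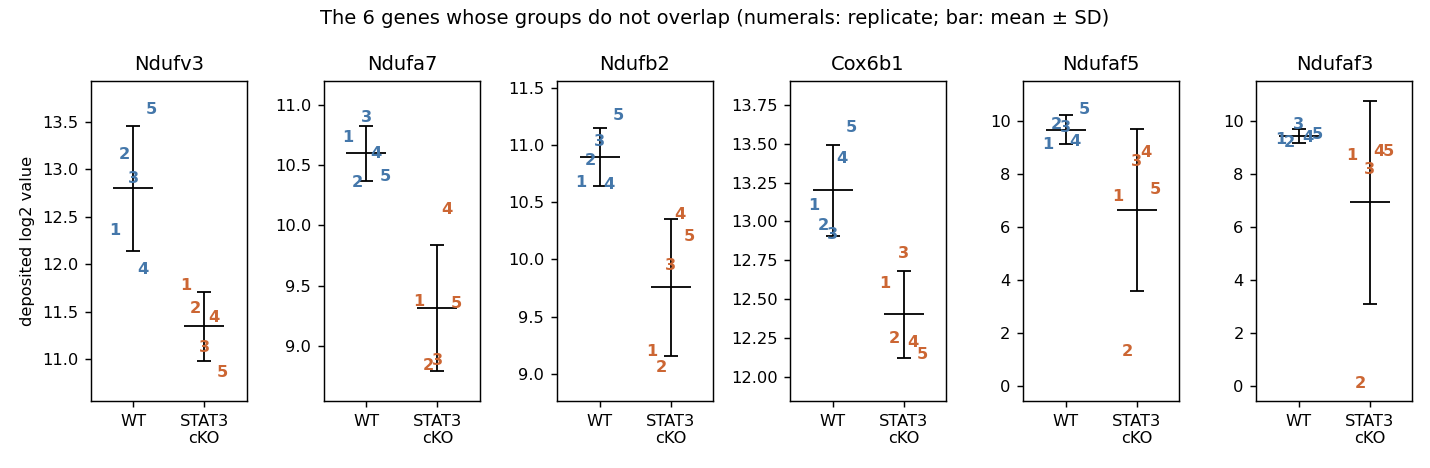
Deposited log2 value (vertical axis, a separate scale in each panel) of the 6 members in which every STAT3cKO library lay below every WT library; numerals are replicate numbers, bars the mean ± SD of 5 libraries. Only Ndufv3 passed the test, and STAT3cKO 2 sits far below the other STAT3cKO libraries for Ndufaf5 and Ndufaf3.

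All 4 subunits of complex II, the succinate dehydrogenase that also works in the citric acid cycle, had a change below 0, with a median of −0.49, and 0 passed. Sdha, the flavoprotein that holds the catalytic site (chromosome 13, 74322254 to 74350280, minus strand of mm10), had values of 11.32, 11.71, 11.02, 10.66 and 11.84 for WT 1 to 5, against 9.98, 10.72, 10.98, 10.98 and 10.93 for STAT3cKO 1 to 5. STAT3cKO 1 was lowest, the other STAT3cKO libraries lay between WT 4 and WT 3, and the change was −0.59 (adjusted p = 0.521 by limma, SE 0.31). Sdhb, the iron-sulfur subunit (chromosome 4, 140961203 to 140979193, plus strand of mm10), had values of 12.26, 12.27, 12.74, 13.13 and 12.98 for WT 1 to 5, against 11.94, 12.88, 12.83, 11.84 and 11.51 for STAT3cKO 1 to 5. STAT3cKO 2 and 3 lay within the WT range and STAT3cKO 1, 4 and 5 below it, with a change of −0.48 (adjusted p = 0.587 by limma, SE 0.31). Sdhc and Sdhd, the membrane anchors, had changes of −0.40 and −0.50.

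Complex III varied little between genes. All 9 of its tested genes had a change below 0, from −0.55 (Uqcrfs1, the Rieske iron-sulfur protein) to −0.27 (Uqcr11), with a median of −0.45, and 0 passed. Uqcrh, the acidic hinge subunit that helps cytochrome c dock (chromosome 4, 116066965 to 116075071, minus strand of mm10), had values of 13.18, 13.30, 13.14, 12.92 and 13.19 for WT 1 to 5, against 12.56, 12.69, 12.47, 13.09 and 12.53 for STAT3cKO 1 to 5. STAT3cKO 4 was within the WT range and the other STAT3cKO libraries below it, and the change was −0.48 (adjusted p = 0.453 by limma, SE 0.22, 95% interval from −0.95 to −0.01). Cycs, cytochrome c itself (chromosome 6, 50562563 to 50566538, minus strand of mm10), had values of 11.71, 11.91, 10.88, 11.42 and 12.06 for WT 1 to 5, against 10.73, 11.21, 11.08, 11.48 and 10.90 for STAT3cKO 1 to 5. WT 3 and STAT3cKO 1 were its lowest libraries of each group, and the change was −0.51 (adjusted p = 0.542 by limma, SE 0.29).

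In complex IV, 10 of the 11 common subunits, Ndufa4 included, had a change below 0, 8 with equal library totals, with a median of −0.53, and 0 passed. The mean level was 12.36, 12.47, 12.42, 12.52 and 12.83 for WT 1 to 5, against 11.97, 12.39, 11.89, 12.32 and 12.01 for STAT3cKO 1 to 5. Only STAT3cKO 2 reached the WT range, just above WT 1. Cox6b1, which joins the monomers of the enzyme on the intermembrane side (chromosome 7, 30616861 to 30626151, minus strand of mm10), had values of 13.10, 12.98, 12.91, 13.41 and 13.60 for WT 1 to 5, against 12.60, 12.24, 12.80, 12.22 and 12.14 for STAT3cKO 1 to 5. Its groups did not overlap, and the change was −0.80 (adjusted p = 0.144 by limma, SE 0.24, 95% interval from −1.31 to −0.29). Cox8a, a small membrane subunit (chromosome 19, 7215153 to 7217616, minus strand of mm10), had values of 12.53, 12.36, 12.71, 12.75 and 13.10 for WT 1 to 5, against 12.40, 11.76, 11.77, 11.68 and 11.52 for STAT3cKO 1 to 5. STAT3cKO 1 exceeded WT 2 and the remaining STAT3cKO libraries lay below all of WT, with a change of −0.86 (adjusted p = 0.125 by limma, SE 0.25, 95% interval from −1.40 to −0.33). Cox6c, the complex IV member with the highest mean value, had values of 14.08, 14.20, 14.26, 13.79 and 14.42 for WT 1 to 5, against 13.32, 13.79, 13.22, 13.82 and 13.75 for STAT3cKO 1 to 5. STAT3cKO 2 and 4 lay just above WT 4, the lowest WT library, and the others below it, with a change of −0.57 (adjusted p = 0.333 by limma, SE 0.22), and exons of Cox6c overlap those of Vps13b on the other strand.

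Of the other 8 common subunits, Cox7c, Ndufa4 and Cox4i1 had changes of −0.58, −0.57 and −0.53, and Cox5a one of −0.22. The other 4 were Cox6a1, Cox7a2, Cox5b and Cox7b. Cox6a1 (chromosome 5, 115345642 to 115348981, minus strand of mm10) had values of 12.62, 12.30, 12.76, 12.60 and 12.81 for WT 1 to 5, against 12.81, 12.39, 12.88, 12.18 and 12.61 for STAT3cKO 1 to 5. The groups covered much the same range and the change was −0.04 (adjusted p = 0.962 by limma, SE 0.24, 95% interval from −0.54 to 0.45), which turned to 0.07 with equal library totals. Cox7a2 (chromosome 9, 79755361 to 79759878, minus strand of mm10) had values of 11.84, 12.17, 12.03, 12.40 and 11.72 for WT 1 to 5, against 11.63, 12.11, 11.18, 12.03 and 12.15 for STAT3cKO 1 to 5. Only STAT3cKO 1 and 3 lay below all of WT, and the change was −0.21 (adjusted p = 0.792 by limma, SE 0.27, 95% interval from −0.78 to 0.35), turning to 0.09 among the 4 deeper libraries. Cox5b, the zinc-binding subunit, had a change of 0.03, and Cox7b one of −0.09.

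The tissue-specific subunits of muscle, heart and brown fat varied far more between libraries than the common ones, within both groups. Cox6a2 (chromosome 7, 128205435 to 128206387, minus strand of mm10) had values of 9.26, 12.69, 10.97, 11.72 and 13.13 for WT 1 to 5, against 7.82, 12.84, 10.51, 11.71 and 7.71 for STAT3cKO 1 to 5. STAT3cKO 1 and 5 were lowest, WT 1 was low as well, and STAT3cKO 2 was close to WT 5, the highest library. Cox7a1 (chromosome 7, 30184144 to 30186078, plus strand of mm10) had values of 10.50, 11.05, 11.02, 10.76 and 12.30 for WT 1 to 5, against 6.32, 11.93, 10.91, 11.82 and 8.58 for STAT3cKO 1 to 5. Here too STAT3cKO 1 and 5 were lowest and STAT3cKO 2 and 4 among the highest. Cox8b (chromosome 7, 140898945 to 140900446, minus strand of mm10) had values of 10.93, 11.71, 11.53, 10.55 and 12.78 for WT 1 to 5, against 7.36, 12.49, 10.22, 11.54 and 8.02 for STAT3cKO 1 to 5. Its low libraries were again STAT3cKO 1 and 5. The changes were −1.44 (adjusted p = 0.687 by limma, SE 1.18) for Cox6a2, −1.22 (adjusted p = 0.7 by limma, SE 1.05) for Cox7a1 and −1.57 (adjusted p = 0.588 by limma, SE 0.98) for Cox8b. Without STAT3cKO 1 they were −0.86, −0.32 and −0.93, and without STAT3cKO 5 −0.83, −0.88 and −1.10. Exons of Cox6a2 overlap those of Itgad on the other strand.

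The difference between a tissue-specific and a common isoform within a library hardly depends on its scaling where both have many reads, but it does for Cox4i2, which had no read in 3 libraries. For 4 such differences the groups were compared over every way to assign 5 of the 10 libraries, where the smallest p possible is 0.00794, with Benjamini-Hochberg adjustment over the 4. Cox6a2 minus Cox6a1 was −1.06 ± 1.57 in WT and −2.46 ± 2.49 in STAT3cKO, a change of −1.39 (exact 2-sided permutation p = 0.302, adjusted p = 0.563). Cox7a1 minus Cox7a2 was −0.91 ± 0.87 in WT and −1.91 ± 2.39 in STAT3cKO, a change of −1.0 (exact 2-sided permutation p = 0.444, adjusted p = 0.563). Cox8b minus Cox8a was −1.19 ± 0.75 in WT and −1.90 ± 2.38 in STAT3cKO, a change of −0.71 (exact 2-sided permutation p = 0.563, adjusted p = 0.563), and without STAT3cKO 1 this change was 0.08. Cox4i2, an isoform of lung and smooth muscle, minus Cox4i1 was −6.73 ± 3.18 in WT and −8.39 ± 3.14 in STAT3cKO, a change of −1.66 (exact 2-sided permutation p = 0.341, adjusted p = 0.563). In 0 of the 4 was the difference between groups beyond the spread between libraries. The change rests on few libraries: without STAT3cKO 1 it was −0.76 for Cox6a2 minus Cox6a1 and −0.15 for Cox7a1 minus Cox7a2, and without WT 5 it was −3.08 for Cox4i2 minus Cox4i1. Without STAT3cKO 5, Cox6a2 minus Cox6a1 was −0.78 and Cox7a1 minus Cox7a2 −0.59.

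**Figure D4:**
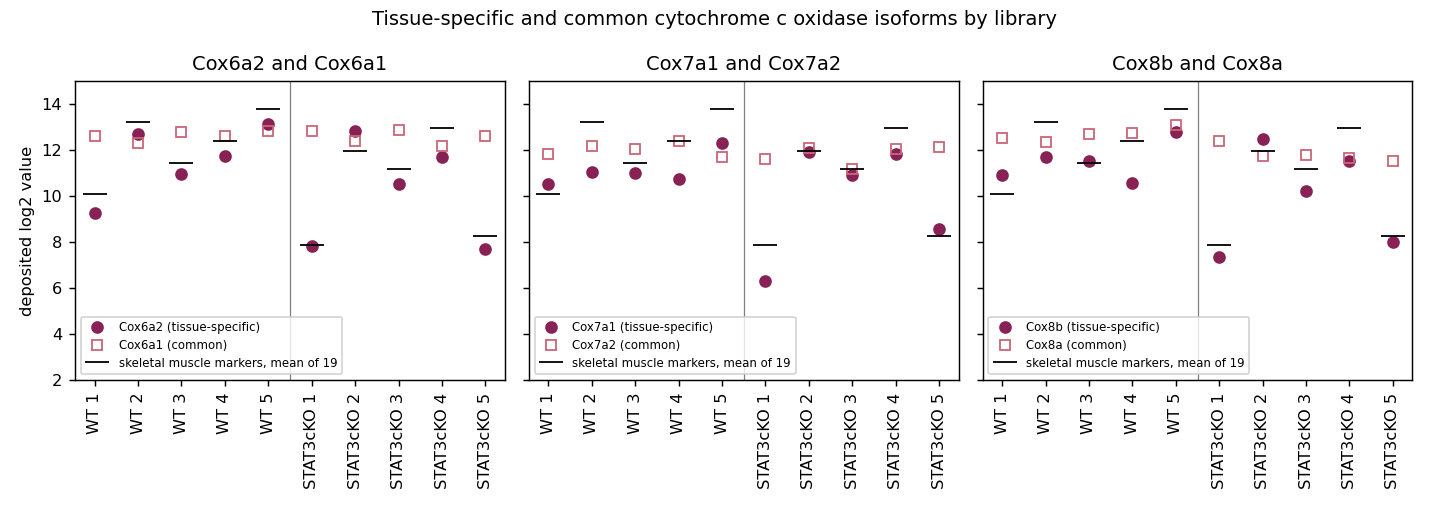
Deposited log2 value (vertical axis) of the tissue-specific isoforms Cox6a2, Cox7a1 and Cox8b (filled circles) and of the common isoforms Cox6a1, Cox7a2 and Cox8a (open squares) in each of the 10 libraries; dashes are the mean of 19 skeletal muscle markers. The tissue-specific isoforms and the muscle markers are low together in STAT3cKO 1 and STAT3cKO 5, while the common isoforms show no such drop.

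Skeletal muscle markers were lowest in the same libraries as Cox6a2, Cox7a1 and Cox8b, but did not follow them in every library. Their mean over 19 tested genes was 10.09, 13.23, 11.42, 12.39 and 13.80 for WT 1 to 5, against 7.88, 11.97, 11.17, 12.97 and 8.25 for STAT3cKO 1 to 5. STAT3cKO 1 and 5 were lowest and WT 1 came next, as for Cox6a2. STAT3cKO 2 was among the highest for Cox6a2, Cox7a1 and Cox8b, but its muscle mean lay below those of WT 2, 4 and 5 and STAT3cKO 4. Of the other tissue-specific genes, Ndufa4l2 was not low in STAT3cKO 1, at 8.49, nor Cox4i2 in STAT3cKO 5, at 6.99. Of the 19, 17 had a change below 0 and 0 passed, with a median of −1.75. Their summed level, in scaled reads, was 39638 to 601824 in WT and 11211 to 324435 in STAT3cKO, and Ckm, the muscle creatine kinase, had a change of −2.81 (adjusted p = 0.384 by limma, SE 1.08) and Actn3, a fast-fibre actinin, one of −4.30 (adjusted p = 0.365 by limma, SE 1.70). Of 9 slow and cardiac muscle markers listed 4 were tested, and all 4 were below 0, with a median of −1.35. In the 6 shallower libraries 2 of the 4 were below 0, with a median of −0.01 against −0.18 over all genes. Of the 20 skeletal muscle markers listed 1 was not tested, and 0 of the 20 lacked a read in every library. Of the brown fat markers, which include Cox7a1 and Cox8b themselves, Ucp1, the uncoupling protein that defines brown fat, is listed at 0 in every library, as is the widely used gene Eno1, and 4 of 6 tested genes had a change below 0. The part of muscle content in the isoform values was not tested.

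Of the remaining tissue-specific genes, Ndufa4l2, a hypoxia-induced paralog of the complex IV subunit Ndufa4, had a change of −1.49 (adjusted p = 0.704 by limma, SE 1.34), and Cox4i2 one of −2.19 (adjusted p = 0.707 by limma, SE 1.98) with no read in WT 5, STAT3cKO 2 or STAT3cKO 3. Cox6b2, a testis form, had reads in 3 WT libraries and in STAT3cKO 2 and was not tested. Cox7b2 and Cox8c, also known from testis, are listed at 0 in every library. A listed 0 sets no limit on their level here, since Eno1, a glycolytic gene that nearly every cell uses, is also listed at 0 in every library.

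Complex V had the median nearest 0 of complexes I to V. Of its 15 tested genes 12 had a change below 0, 9 with equal library totals, the median was −0.24, against −0.16 over all genes, and 0 passed. That median was −0.06 without WT 5 and −0.07 without STAT3cKO 1, where the medians over all genes were −0.20 and −0.21. With all libraries, 8 of the 15 lay below the median of all genes. Atp5j, coupling factor 6 of the peripheral stalk (chromosome 16, 84827866 to 84835625, minus strand of mm10), had values of 11.94, 12.43, 11.33, 11.75 and 12.53 for WT 1 to 5, against 10.68, 11.65, 10.32, 11.38 and 10.92 for STAT3cKO 1 to 5. WT 3 was lowest in WT and STAT3cKO 2 and 4 lay above it, and the change was −1.01 (adjusted p = 0.171 by limma, SE 0.32, 95% interval from −1.68 to −0.33). Its exons overlap those of Gabpa, the gene of an ETS factor, on the other strand. Atp5o, the stalk protein that confers oligomycin sensitivity and the complex V member with the highest mean value, had values of 13.40, 13.58, 13.47, 13.29 and 14.19 for WT 1 to 5, against 13.44, 13.90, 13.88, 13.97 and 13.25 for STAT3cKO 1 to 5. The groups interleaved, and the change was 0.10 (adjusted p = 0.898 by limma, SE 0.24, 95% interval from −0.41 to 0.61). The catalytic head subunits Atp5b and Atp5a1 had changes of 0.29 and 0.23, and with Atp5o they were the 3 complex V genes above 0. The annotation holds 2 genes named Atp5o, so no position is given for it.

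Assembly and related factors had a median of −1.33 and wide errors. Of the 10, 8 had a change below 0, and 0 passed. Ndufaf5, which modifies the core subunit Ndufs7 during complex I assembly (chromosome 2, 140170649 to 140203689, plus strand of mm10), had values of 9.11, 9.86, 9.75, 9.20 and 10.42 for WT 1 to 5, against 7.15, 1.29, 8.46, 8.81 and 7.41 for STAT3cKO 1 to 5. The groups did not overlap, STAT3cKO 2 held about 1 read, and the change was −3.04 (adjusted p = 0.341 by limma, SE 1.16, 95% interval from −5.54 to −0.54), or −1.71 (adjusted p = 0.0871 by limma) without STAT3cKO 2. Ndufaf3, an early assembly factor of complex I (chromosome 9, 108565537 to 108567434, minus strand of mm10), had values of 9.28, 9.16, 9.86, 9.35 and 9.47 for WT 1 to 5, against 8.70, 0.06, 8.16, 8.85 and 8.82 for STAT3cKO 1 to 5. It had no read in STAT3cKO 2, and the change of −2.50 (adjusted p = 0.577 by limma, SE 1.52) became −0.79 (adjusted p = 0.408 by limma) without that library. Exons of Ndufaf3 overlap those of Impdh2 on the other strand. Cox7a2l, which helps complexes III and IV join into supercomplexes (chromosome 17, 83501918 to 83517330, minus strand of mm10), had values of 12.77, 12.61, 12.91, 12.35 and 12.77 for WT 1 to 5, against 12.41, 13.10, 12.37, 12.34 and 11.86 for STAT3cKO 1 to 5. Its groups overlapped and its change was −0.26 (adjusted p = 0.729 by limma, SE 0.26). The median of the 10 factors was −0.62 without STAT3cKO 2, −2.27 without WT 3 and −0.78 with a pseudocount of 16.

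Other lists of mitochondrial genes were also mostly below 0. Of 40 tested assembly factors outside the naming rule, 0 rose, 1 fell and 39 did not pass, 37 were below 0 and the median was −0.84. The gene that fell was Pet100, an assembly factor of complex IV, by 1.46 (SE 0.34, adjusted p = 0.044 by limma). Its call was lost with equal library totals (−1.35, adjusted p = 0.0582 by limma), in either depth class and in 8 of 10 fits lacking a library (adjusted p up to 0.129 by limma), holding only without WT 4 or STAT3cKO 5. The median of these 40 genes was −0.50 without STAT3cKO 2. Of 14 genes of the citric acid cycle 11 were below 0, with a median of −0.56 and 0 calls, and Idh3a, a subunit of its NAD-dependent isocitrate dehydrogenase, had a change of −1.10 (adjusted p = 0.394 by limma, SE 0.47), and Ogdh, of the oxoglutarate dehydrogenase complex, one of −1.43 (adjusted p = 0.402 by limma, SE 0.60). Of 75 mitochondrial ribosomal protein genes 62 were below 0, with a median of −0.45 and 0 calls. Their summed level was 55683 to 64647 scaled reads in WT and 45301 to 51127 in STAT3cKO. Those ranges do not meet, but the unlogged library totals were lower in every STAT3cKO library than in every WT library, and as a share of reads the same genes took 0.488 to 0.582% in WT and 0.434 to 0.489% in STAT3cKO, ranges that meet at STAT3cKO 4 and WT 3. Their lowest p belonged to Mrps6, with a change of −1.79 (adjusted p = 0.0747 by limma, SE 0.46), followed by Mrpl33 at −0.71 (adjusted p = 0.336 by limma, SE 0.28). With equal library totals 34 of the 40 assembly factors and 54 of the 75 ribosomal genes were below 0.

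Lists further from the respiratory chain had medians nearer to 0 with all libraries, each with 0 calls. Genes of pyruvate entry had 6 of 9 below 0 and a median of −0.26, with Pdhx, of the pyruvate dehydrogenase complex, at −0.66 (adjusted p = 0.64 by limma, SE 0.49) and Mpc2, of the mitochondrial pyruvate carrier, at −0.36 (adjusted p = 0.679 by limma, SE 0.29). Genes of uncoupling and ATP exchange had 8 of 10 below 0, 6 with equal library totals, and a median of −0.30, with Ckmt2, the muscle mitochondrial creatine kinase, at −1.74 (adjusted p = 0.496 by limma, SE 0.86) and Ucp3 at −3.45 (adjusted p = 0.503 by limma, SE 1.77). Fatty acid oxidation had 11 of 18 below 0, 8 with equal library totals, and a median of −0.07, which turned to 0.04 on that scaling. Etfb, which passes electrons from fatty acid oxidation to the chain, had a change of −1.30 (adjusted p = 0.159 by limma, SE 0.40), and Acadm, which oxidises medium-chain fatty acids, one of −0.81 (adjusted p = 0.483 by limma, SE 0.40). Glycolysis had 8 of 16 below 0 and a median near 0, with changes of −1.09 (adjusted p = 0.264 by limma, SE 0.39) for Gapdh and −0.80 (adjusted p = 0.345 by limma, SE 0.32) for Tpi1, while Eno1 is listed at 0 in every library. Of 14 regulators of mitochondrial biogenesis 6 were below 0, with a median of 0.15, which became 0.76 without STAT3cKO 2, further from 0 than that of the members, and −0.32 in the 6 shallower libraries. Tfam, the mitochondrial DNA packaging and transcription factor, had a change of −1.29 (adjusted p = 0.401 by limma, SE 0.55), and the transcription factor Yy1 one of 1.18 (adjusted p = 0.665 by limma, SE 0.94). Differences between these lists were not tested.

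**Figure D5:**
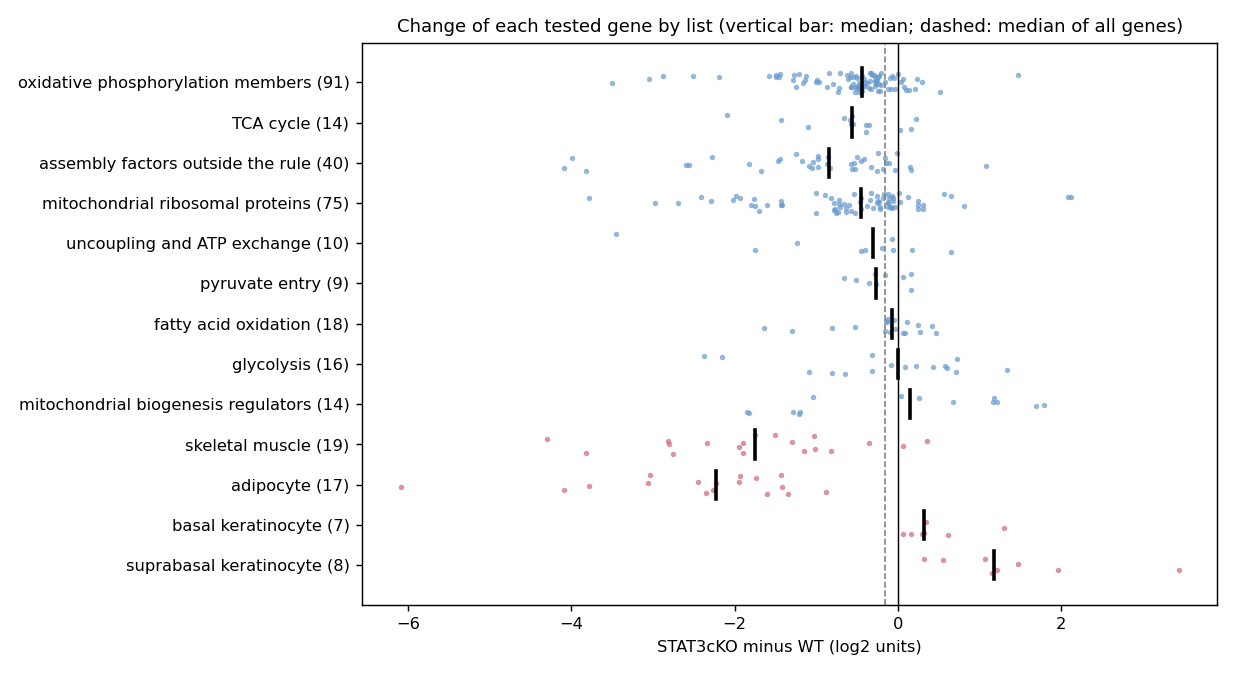
Change of each tested gene, STAT3cKO minus WT in log2 units (horizontal axis), for the oxidative phosphorylation members, other lists of energy metabolism (blue) and cell type markers (red), with the number of tested genes in brackets; black bars are medians and the dashed line is the median of all genes. The members' median lies at −0.44, glycolysis near 0, muscle at −1.75, adipocyte at −2.22 and suprabasal keratinocyte markers at 1.18.

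Markers of several cell types in skin lay mostly on one side of 0 within several lists, though few passed the test. Of 17 adipocyte markers 17 had a change below 0 and 1 fell, Car3, an abundant carbonic anhydrase of fat, with a change of −3.06 (adjusted p = 0.0209 by limma, SE 0.56), and the median was −2.22. The call of Car3 was lost in 5 of 10 fits lacking a library, those without WT 1, 2 or 3 or STAT3cKO 1 or 5 (adjusted p up to 0.0729 by limma). Their mean level was 12.90, 12.98, 12.71, 11 and 11.41 for WT 1 to 5, against 9.51, 10.49, 8.69, 10.61 and 9.44 for STAT3cKO 1 to 5. In this mean all STAT3cKO libraries lay below all WT libraries. The summed level of the adipocyte markers was 139419 to 751306 scaled reads in WT and 54998 to 281562 in STAT3cKO, ranges that overlap. Suprabasal keratinocyte markers went the other way in 8 of 8 genes with 0 calls, a median of 1.18, and a summed level of 35859 to 141269 in WT and 125909 to 231325 in STAT3cKO, ranges that meet. Basal keratinocyte markers had a median of 0.32 with 7 of 7 above 0, macrophage markers one of −0.62 with 9 of 9 below 0, and fibroblast markers one of −0.27 with 4 of 8 below 0 and 1 that fell, Dpt with a change of −1.53 (adjusted p = 0.0287 by limma, SE 0.33). The call of Dpt was lost in 7 of 10 such fits, reaching 0.103 as an adjusted p by limma, and held when WT 4, STAT3cKO 2 or STAT3cKO 4 was left out. It was also lost with median-centred libraries (adjusted p = 0.0674 by limma). Hair shaft and matrix markers, which mark growing follicles, had a mean level of 0.40, 1.06, 4.27, 13 and 4.78 for WT 1 to 5, against 9.81, 0.24, 12.54, 0.82 and 9.56 for STAT3cKO 1 to 5, high in WT 4 and in STAT3cKO 1, 3 and 5. Of 7 sebocyte markers 2 rose, Soat1 at 3.10 (adjusted p = 0.00167 by limma, SE 0.47) and Fa2h at 3.85 (adjusted p = 0.0026 by limma, SE 0.53). The sebocyte median was 0.04, as 3 of the 7 were below 0, the lowest at −6.71. In 2 sebocyte markers every STAT3cKO library lay above every WT library, and in 1 every STAT3cKO library lay below. The same held for 1 suprabasal keratinocyte marker above and 2 adipocyte markers below. Over all genes tested these shares were 1.71% above and 1.72% below. A sebocyte marker was called lower with a pseudocount of 16 and without STAT3cKO 2, but not in the fit reported. Endothelial markers had a median of 0.34 over 6 genes and erythrocyte markers one of 0.61 over 5, with 0 calls. In each of the lists of this paragraph 0 markers lacked a read in every library. The part of hair growth in the values of the oxidative phosphorylation genes was not tested either.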

How the data were processed

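RNA of 10 libraries of whole skin, 5 STAT3cKO and 5 WT, was extracted with Trizol and read at its 3′ ends with the Lexogen QuantSeq kit, per the labels' protocols. Each of the 10 tables that the authors deposited lists a log2 value per gene symbol, made with Bowtie2 and bedtools against mm10, per the submitters' processing notes. Versions, annotation, strand, scaling and the treatment of duplicates and of reads matching several places are unknown, as the sources do not state them. From the values, the unit is log2 of scaled reads plus a pseudocount of 1, and the estimated depth is the unlogged sum over the worth of 1 read. Values worth less than 0.5 of a read counted as none.

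Genes with a value of at least 5 in at least 5 libraries were tested with limma 3.58.1 in R 4.3.3, with group as the only term, a mean trend, robust moderation and Benjamini-Hochberg adjustment over the 11536 genes tested. A gene passed at an adjusted p under 0.05. A change is the STAT3cKO mean minus the WT mean of the log2 values, a scale on which 1 library without a read can enlarge the change of a gene and a low level in every library shrinks it. Isoform differences used exact 2-sided permutation tests. Only the per-gene fit was tested on simulated data, with noise drawn independently for each gene. The alternatives were equal library totals, median-centred libraries, a pseudocount of 16, other filters, no trend, a replicate block, a depth term, depth classes, and fits without single libraries or without STAT3cKO 2 and WT 3.

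The members and the 20 lists of pathway genes and markers were chosen with earlier results of these data known, so their counts and medians are descriptions. Genes given library by library are called members, the tissue-specific and matching common isoforms of complex IV, the lowest p and the highest mean value of each complex, Ndufa13, and members whose groups did not overlap. From a list, called genes or else the lowest p are named. Positions are from GENCODE, release 21 of the M series, where 92 of the 94 symbols match exactly 1 gene. Of these, 28 have exons that overlap a gene on the other strand and 4 have exons that overlap a gene on the same strand. Plots used matplotlib 3.10.9 and Python 3.11.15.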

Additional observations from a re-analysis of the deposited data

Results flagged for a closer look

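In groups of 5 libraries, 1 library stood far from the other 4 in 9 of the 66 groups of values looked at, and chance alone gives about 1 in 20. Cox8a was high in STAT3cKO 1, at 12.40 against 11.52 to 11.77 in the other STAT3cKO libraries. Sdha was low in the same library, at 9.98 against 10.72 to 10.98. STAT3cKO 2 was low for Ndufaf5, at 1.29 against 7.15 to 8.81, and for Ndufaf3, at 0.064 against 8.16 to 8.85, while its mean over complex II was high, at 11.22 against 10.07 to 10.29. STAT3cKO 4 was high in the mean over all tested members, at 11.08 against 10.33 to 10.53, and in the mean over the tissue-specific subunits of complex IV, at 9.88 against 6.90 to 7.75. Genes with few reads weigh heavily in such means of log2 values. STAT3cKO 2 exceeded STAT3cKO 4 for Cox6a2, Cox7a1 and Cox8b, but held Ndufa4l2 at 1.29 and Cox4i2 at 0.06. By share of reads all members took 3.24% in STAT3cKO 2 and 3.33% in STAT3cKO 4. WT 5 was high in Cox7a1 minus Cox7a2, at 0.59 against −1.65 to −1.02 in the other WT libraries, and low in Cox4i2 minus Cox4i1, at −12.39 against −5.61 to −5.03, as Cox4i2 had no read there.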

How the results depend on the processing

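The median change of the members and of each complex stayed below 0 in every alternative run. The median of all genes was itself below 0 in most runs, and complex V did not always lie below it. Without WT 5 the median of complex V was −0.06 against −0.20 over all genes. In the shallower libraries it was −0.17 against −0.18. Over all genes 61 were called higher and 53 lower. The split was 76 and 39 with equal library totals, 67 and 32 with median-centred libraries, 13 and 31 without trend, and 12 and 4 in the shallower libraries. A pseudocount of 16 gave 85 called lower and the deeper libraries 92. Leaving out 1 library gave 29 to 96 called higher and 24 to 111 called lower. The replicate block gave 34 and 32, and with it 0 members were called lower. No label says that the replicate numbers pair the libraries. In their deviations from the group means, same-numbered libraries had correlations of −0.15 to 0.02, and none was closest to its own number. These correlations gave no sign of pairing but cannot exclude it, since other variation between libraries could hide it. Of the members, 1 was called lower in the fit reported. The count was 2 with the stricter filter, 0 to 2 without 1 library, and 0 with equal totals, median-centred libraries, no trend, either depth class, or without STAT3cKO 2 and WT 3. The median of complex IV was −0.28 in the deeper libraries. Cox6a1 turned to 0.0671 with equal totals, 0.0420 when centred and 0.037 without STAT3cKO 2 and WT 3, and ranged from −0.124 to 0.0533 without 1 library. Cox7a2 turned to 0.0885 in the deeper libraries, and Cox8b minus Cox8a ranged from −1.37 to 0.0767 without 1 library. The causes were not tested. Of 461 alternative values of 22 named genes, 438 kept their direction and side of the threshold. That total says little about the call, since of these genes only Ndufv3 passed in the fit reported. The 14 values that lost a call were all those of Ndufv3, while 2 values gained a call and 7 changed direction. Genes with few reads, such as the assembly factors, carry wide errors.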
